A study of Mus musculus with 9 samples.

Results

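B1 cells of the mouse peritoneal cavity were compared with B2 cells of the spleen across 11099 of 22178 genes, those with a mean of at least 1 TPM over all 9 libraries of the series. TPM is a gene's length-corrected share of the mRNA in a library. The 3 B2 libraries were of splenic B2 cells from mice with the strain name VH12B1-8/Vk4. The 3 B1 libraries were of peritoneal B1 cells from mice with the strain name B1-8VH12/Vk4. A further group of 3 libraries, B2B1, was peritoneal too and carried the B1 strain name. Its cells had undergone an induced exchange of the B cell receptor about 30 days before they were collected. B2B1 entered the fit for the estimate of the spread and appears below beside the B1 values. All 9 libraries came from backcrossed C57BL/6 stock and from poly(A) RNA, and the age of the mice is not given in the sources used here. Tissue, strain name and cell class changed together between B2 and B1, so a difference that follows the class, one that follows the organ and one that follows the receptor allele cannot be told apart. Whether each library stands for its own mouse is not stated in the labels, so every p-value reflects library-to-library spread alone, which may be technical.

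B1 cells are a long-lived, self-renewing B cell class of the body cavities that makes much of the natural IgM. B2 cells circulate through spleen and lymph nodes, where follicular and marginal zone cells await antigen. Both classes carry a B cell receptor whose signal runs through kinases, phosphoinositides, calcium and small GTPases, and both are kept in place by chemokine receptors and adhesion molecules. The surface markers that define the classes are well known, so the families described here are mainly those of cell shape, signal relay, cytokine supply, lipid and sugar chemistry, and the basic machinery of the cell.

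The libraries were first set beside their labels. The marker lists were chosen with earlier results of these data known, so their counts are no independent check of the labels. Library totals over the genes of the table were 894515 to 943043 TPM, and read depth is unknown because TPM keep none. All 9 of the B-1 label markers were called higher in B1 at 2-fold or more, with Zbtb32, a zinc finger repressor, at 1.66, 0.981 and 1.21 TPM in B2 and at 366, 458 and 435 TPM in B1. Of the 8 follicular and marginal zone label markers 6 were called lower at 2-fold (7 at the adjusted p alone) and 1, Fcrl5, was called higher. Among the 9 pan-B markers 2 were called higher and 4 lower, and their summed level lay between 26840 and 27440 TPM in B2 and between 20280 and 24820 TPM in B1. B1 library 2 stood apart from the other B1 libraries: on a principal component holding 4.12% of the variance it lay at -29.4, against 10.8 and 11.5. Its mean log2(TPM + 1) over 19 tested cell cycle genes was 4.16, against 2.87 and 2.92. The B2 libraries lay between 2.84 and 3.0 on that measure, and over the cell cycle list Mcm6 was called higher (0.84) and Tyms lower (-0.39, a call not made after either scaling described below and lost without B1 library 1, at -0.29, without B2 library 1, at -0.36, and without B2 library 2, at -0.35). B2 library 2 alone held the Y-linked Ddx3y at 75.3 TPM and had Xist at 0.412 TPM, against at least 212 TPM of Xist in every other B1 and B2 library. These genes were picked after their values were seen.

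Markers of other cells were low in both groups, with exceptions that bear on genes below. The 15 macrophage markers summed to between 35.8 and 53.5 TPM in B2 and between 77.4 and 117 TPM in B1. Most of each B2 sum was Apoe, at 43.8, 33.6 and 51.2 TPM in B2 and at 55.7, 36.4 and 68.2 TPM in B1. Apoe was not called, and the other members together were thus a far smaller part of the sum in B2 than in B1. Of the 6 tested, Emr1 was called, at 0.432, 0.272 and 0.448 TPM in B2 and 19.7, 13.6 and 20.9 TPM in B1. B1 libraries 2 and 3 were the higher B1 libraries for 5 other members of this list. Lyz2 stood at 30.9 and 21.6 TPM in these libraries against at most 1.52 TPM in B2, C1qa at 1.21 and 1.76, C1qb at 1.02 and 1.46, and C1qc at 2.25 and 1.46 TPM. None of these was called. Csf1r stood at 0.423 and 0.448 TPM against at most 0.163 TPM in B2 and was below the filter, so it was not tested. The 12 T cell markers summed to between 9.77 and 13 TPM in B2 and between 17.7 and 20.7 TPM in B1. Of the 4 tested, Cd3g was called higher, at 0.145, 0 and 0.221 TPM in B2 and at 10.7, 6.62 and 6.12 TPM in B1, and Lat, an adaptor also known from NK and mast cells, was called lower (-1.49). Cd3e was at 0 in 2 of the 3 libraries of each group. Cd3d, the other T cell marker that the rule for named genes picks, had a log2 fold change of 0.48 ± 0.26 and an adjusted p of 0.155 in limma. The 11 mesothelial and stromal markers summed to between 1.03 and 1.39 TPM in B2 and between 46.65 and 55.3 TPM in B1, and 7 of them, the defining markers Msln, Upk3b, Wt1 and Krt19 among these, were at 0 in all 3 B1 libraries. Krt8, the only one tested, made up 45.2 to 54.7 TPM of the B1 sums, and Gpm6a was at 0.376, 0.245 and 1.08 TPM in B1 against 0.112 to 0.131 TPM in B2. NK cell markers summed to between 12.3 and 18.5 TPM in B2 and to less than 2 TPM in B1, mostly Prf1, a pore-forming protein, at 11.3, 16.3 and 13.5 TPM in B2 and at 0.664, 1.102 and 1.15 TPM in B1. Dendritic cell markers summed to between 19.1 and 21.2 TPM in B2 and between 2.8 and 2.89 TPM in B1. Of 3 tested, 2 were lower at 2-fold, Zbtb46 (-1.17) and Flt3, a growth factor receptor, at 14.1, 15.4 and 16.2 TPM in B2 and at 0.0533, 0.0842 and 0.028 TPM in B1. Of 2 tested neutrophil markers Cxcr2 was called lower, at 19.4, 18.9 and 17.9 TPM in B2 and at 9.87, 12.5 and 13.3 TPM in B1, and Csf3r had a log2 fold change of 0.34 ± 0.14, adjusted p = 0.069 in limma. None of 4 tested erythroid markers was called (adjusted p = 0.0536 for Ermap and 0.523 for Hba-a1 in limma), nor was the 1 tested platelet marker, Gp1ba (0.0985), and no mast cell, eosinophil or endothelial marker was tested. Of 6 tested plasma cell markers Irf4 (0.63), Prdm1 and Derl3, the last of which are described below, were called higher and none lower. The part of other cells in the results below was not tested.

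Across the 11099 genes, 5765 (51.9%) were called at an adjusted p under 0.05 in limma, 2003 higher in B1 (18.0%) and 3762 lower (33.9%). Scaling moved that split: after median-of-ratios scaling it was 2768 higher and 2547 lower, and after quantile normalization 2477 and 2867. Over all tested genes the median fold change (log2) was -0.135 as deposited, -0.001 after the first and -0.047 after the second. The text therefore rests on a second call that also asks for a 2-fold difference, passed by 1478 genes (13.3%), 774 higher in B1 (6.97%) and 704 lower (6.34%). Fold changes are log2 differences of TPM + 1, B1 minus B2, which understate changes of low genes. They are given ± the standard error of the fit, and means of TPM are given ± SD with n = 3, B2 first and B1 second. The B1 and B2 libraries did not overlap for 61.7% of tested genes, so a lack of overlap is by itself no mark of a family. Unless stated otherwise, the B1 and B2 libraries of a gene called at 2-fold and named from here on did not overlap. For other genes overlap is given only where stated. In bulk RNA, fewer cells expressing a gene and less RNA of it per cell cannot be told apart. Families are described by counts of called members beside these shares and no family was tested as a set.

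**Figure D1:**
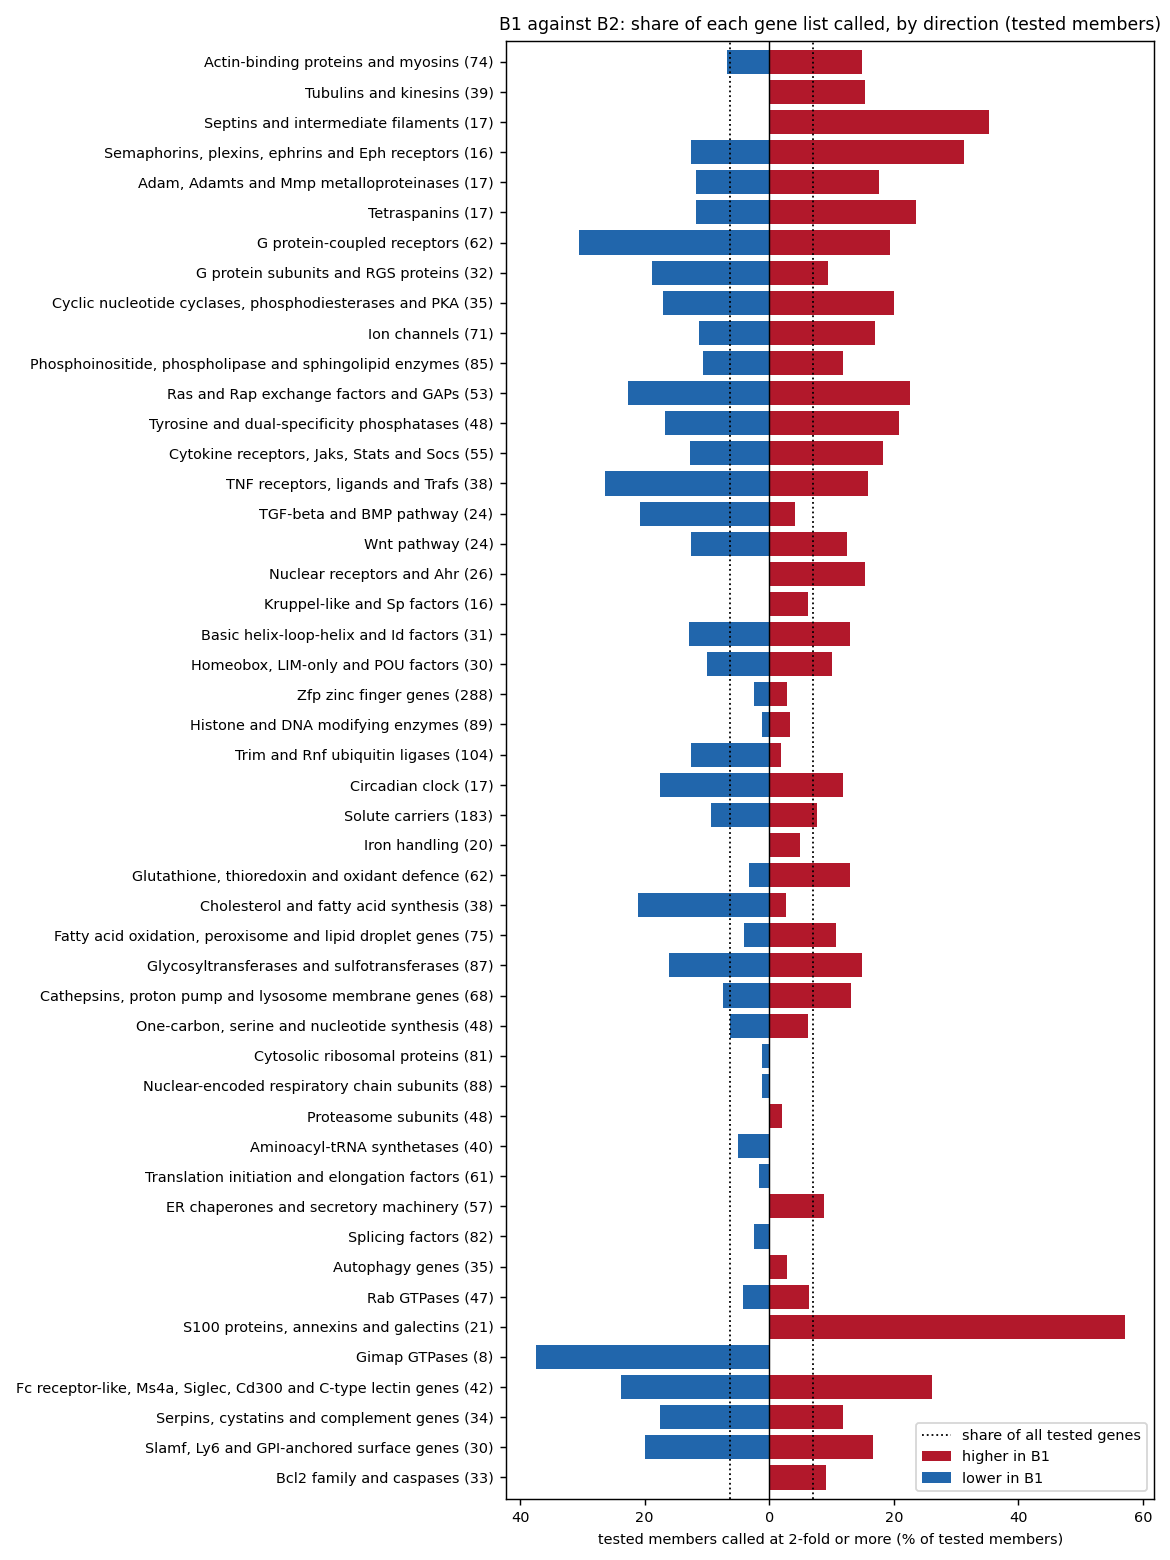
Share of the tested members of the gene families and pathways called at 2-fold or more (x axis, % of tested members), higher in B1 to the right in red and lower in B1 to the left in blue, with the number of tested members in brackets. Dotted lines mark the shares over all 11099 genes, 6.97% higher and 6.34% lower. S100 proteins, annexins and galectins reach 57.1% on the higher side, and splicing factors, ribosomal proteins and proteasome subunits lie below both lines.

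S100 proteins, annexins and galectins were the family with the highest share of members higher in B1. S100 proteins are small calcium sensors, annexins bind membrane lipids when calcium rises, and galectins bind sugars on glycoproteins. Of 21 tested members 12 (57.1%) were called higher and 0 lower at 2-fold, 15 and 1 at the adjusted p alone, and the median log2 fold change was 1.15. S100a4, a calcium sensor that binds non-muscle myosin, stood at 1.15, 0.992 and 0.581 TPM in B2 and at 1182, 623 and 1113 TPM in B1, a log2 fold change of 8.95 ± 0.23 (adjusted p = 1.37e-08, limma). S100a6 was the more abundant of the pair, at 9.902, 11.4 and 5.96 TPM in B2 and at 3834, 2828 and 3288 TPM in B1 (8.39 ± 0.20). In B2, S100a4 was thus at 1.15 TPM or less and S100a6 at 11.4 TPM or less, and both were among the abundant mRNAs of every B1 library. Anxa2, which joins S100a10 in a membrane complex, stood at 3.26, 2.73 and 3.02 TPM in B2 and at 338, 325 and 477 TPM in B1. S100a10 itself differed less, 283 ± 13.1 to 1067 ± 51.5 TPM (1.91 ± 0.15). Lgals1, a galectin that binds galactose-bearing glycans, stood at 12.6, 14.3 and 11.6 TPM in B2 and at 545, 476 and 589 TPM in B1. Lgals3, another galectin, went from 4.73 ± 0.246 to 60.2 ± 35.1 TPM. The other members called higher at 2-fold that are named here, S100a5 (3.45), S100a1 (2.40), S100a11 (1.49), S100a13 (1.15) and the annexin Anxa5 (1.15), had smaller folds; they and Lgals3 and S100a10 were named after their values were seen or as part of the run on chromosome 3 described next.

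The S100 genes lie in one cluster, and 7 of them formed the longest run of neighbouring tested genes that were all called in one direction at 2-fold. On chromosome 3 of GRCm38 the run went from S100a1 (start 90511034) through S100a13, S100a4 (90603770 to 90606045), S100a5 and S100a6 (90612894 to 90614414) to S100a11 and S100a10 (end 93564645), with no other tested gene between them. Folds along it were uneven: S100a4 and S100a6 had log2 fold changes above 8, while S100a5, which lies between them, had 3.45 at only 0 ± 0 to 10.2 ± 2.72 TPM. To show the sequence in front of both high genes, their promoters are printed from RefSeq on GRCm38.p6, from 250 bases before to 30 bases after the start, on the plus strand, at chr3:90603520-90603799 for S100a4 and chr3:90612644-90612923 for S100a6. Capitals mark the E-box CACGTG, which the S100a6 window held after the start. Other motifs were searched for on both strands, an AP-1 motif (TGANTCA), a kappaB motif (GGG, any 3 bases, then TTCC) and a Stat motif (TTCNNNGAA), and neither window held any of these letters.
S100a4: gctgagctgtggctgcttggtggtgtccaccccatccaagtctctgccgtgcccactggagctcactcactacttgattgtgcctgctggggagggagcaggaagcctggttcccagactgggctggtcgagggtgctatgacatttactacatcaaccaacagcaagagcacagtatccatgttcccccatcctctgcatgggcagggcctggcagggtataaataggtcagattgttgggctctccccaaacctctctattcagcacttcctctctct
S100a6: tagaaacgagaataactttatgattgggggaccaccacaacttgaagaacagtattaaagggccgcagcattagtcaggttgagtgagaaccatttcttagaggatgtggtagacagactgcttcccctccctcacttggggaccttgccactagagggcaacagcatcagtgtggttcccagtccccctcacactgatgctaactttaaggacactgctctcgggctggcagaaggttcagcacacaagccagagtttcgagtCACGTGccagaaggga
Over the 8769 tested genes with a promoter of this length, 10.1% held the E-box, 4.49% AP-1, 5.86% kappaB and 6.76% the Stat motif. In the 604 such genes called higher at 2-fold the shares were 6.79%, 6.29%, 6.95% and 6.46%, and in the 524 called lower 10.3%, 6.68%, 6.87% and 8.21%. A match is a match of letters only.

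Among genes of the cytoskeleton, members of the tubulin and kinesin list and of the intermediate filament list called at 2-fold were all higher in B1. Actin genes went both ways. Dclk2, a microtubule-binding kinase outside these lists, was lower (-3.04) and is described below. Microtubules are built of alpha and beta tubulin and are walked on by kinesins, while intermediate filaments are ropes of keratins, vimentin or lamins. Among tubulins and kinesins 39 of 60 members were tested. At 2-fold, 6 were higher in B1 and 0 lower (11 and 10 at the adjusted p alone, 12 and 7 after median-of-ratios and 11 and 7 after quantile scaling), with a median log2 fold change of 0.20. Tubb6, a beta tubulin, stood at 3.79, 3.48 and 4.19 TPM in B2 and at 144, 184 and 212 TPM in B1 (5.22 ± 0.17, adjusted p = 5.48e-08, limma). Tubb3, the beta tubulin known from neurons, went from 0.716 ± 0.116 to 23.2 ± 14.4 TPM, and the near-identical copies Tubb2a (3.16) and Tubb2b (3.93), between which kallisto may have divided shared reads unevenly, were both higher. Kifc3, a kinesin that moves toward the minus end, stood at 0.261, 0.528 and 0.698 TPM in B2 and at 20.1, 22.5 and 24.9 TPM in B1. Tppp, which promotes the polymerization of tubulin, stood at 0.195, 0.38 and 0.389 TPM in B2 and at 60.8, 78.8 and 129.8 TPM in B1, and its relative Tppp3 was higher as well (4.77 ± 0.39). So 4 beta tubulins and 2 tubulin-polymerizing proteins were higher in every B1 library than in any B2 library.

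Of 17 tested septins and intermediate filament genes 6 (35.3%) were called higher and 0 lower at 2-fold, 10 and 0 at the adjusted p alone, with a median of 0.62. Vim, vimentin, was abundant already in B2 and went from 315 ± 39.9 to 2894 ± 889 TPM. Lmna, which encodes lamins A and C of the nuclear envelope, stood at 3.37, 0.929 and 3.401 TPM in B2 and at 83.7, 121 and 186 TPM in B1. Sept11, a septin, went from 24.4 ± 1.16 to 128 ± 30.6 TPM. Krt8 and Krt18 form the keratin pair of simple epithelia: Krt8 stood at 0.0745, 0 and 0 TPM in B2 and at 45.9, 54.7 and 45.2 TPM in B1. Krt18 stood at 0, 0.259 and 0 TPM in B2 and at 25.9, 16.5 and 33.2 TPM in B1. Both partners were present in all 3 B1 libraries, and the mesothelial list as a whole is described above. Krt222, a keratin-related gene, went from 5.75 ± 0.252 to 61.4 ± 17.4 TPM. Ahnak, a very large scaffold protein under the plasma membrane, stood at 29.5, 21.1 and 42.1 TPM in B2 and at 785, 1003 and 1203 TPM in B1.

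Actin genes were split. Among actin-binding proteins and myosins 74 of 110 members were tested. Called at 2-fold were 11 on the higher side and 5 on the lower (20 and 25 at the adjusted p alone, 26 and 18 after median-of-ratios and 22 and 24 after quantile scaling), with a median log2 fold change of -0.032. On the higher side, Actn1, the actin crosslinker alpha-actinin 1, stood at 0.236, 0.205 and 0.103 TPM in B2 and at 26.7, 25.1 and 24.9 TPM in B1 (4.49 ± 0.28). Pdlim1, which binds alpha-actinins, went from 28.5 ± 1.73 to 180.4 ± 35.1 TPM. Tagln2, an actin-bundling protein, went from 237 ± 31.3 to 893 ± 291 TPM. Myo1d, a single-headed membrane myosin, went from 0.683 ± 0.0938 to 16.3 ± 7.34 TPM. On the lower side, Gsn (gelsolin), which cuts and caps actin filaments, stood at 103, 112 and 91.8 TPM in B2 and at 5.42, 3.69 and 4.92 TPM in B1 (-4.19 ± 0.12). Myl4, a myosin light chain, stood at 44.3, 47.6 and 44.9 TPM in B2 and at 0.18, 1.71 and 0.142 TPM in B1. Zyx (zyxin), a protein of adhesion sites, went from 42.8 ± 5.33 to 7.97 ± 1.99 TPM. Fmnl3, a formin that elongates actin filaments, had a log2 fold change of -2.25 ± 0.15. These functions did not divide the list, since the capping protein Capg (1.13) and the formin Diap3 (1.06) were called higher at 2-fold. The bundling protein Lcp1 (-0.96) was called lower at the adjusted p alone. Capg, Diap3 and Lcp1 were named after their values were seen, and overlap is not stated for Diap3 and Lcp1.

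**Figure D2:**
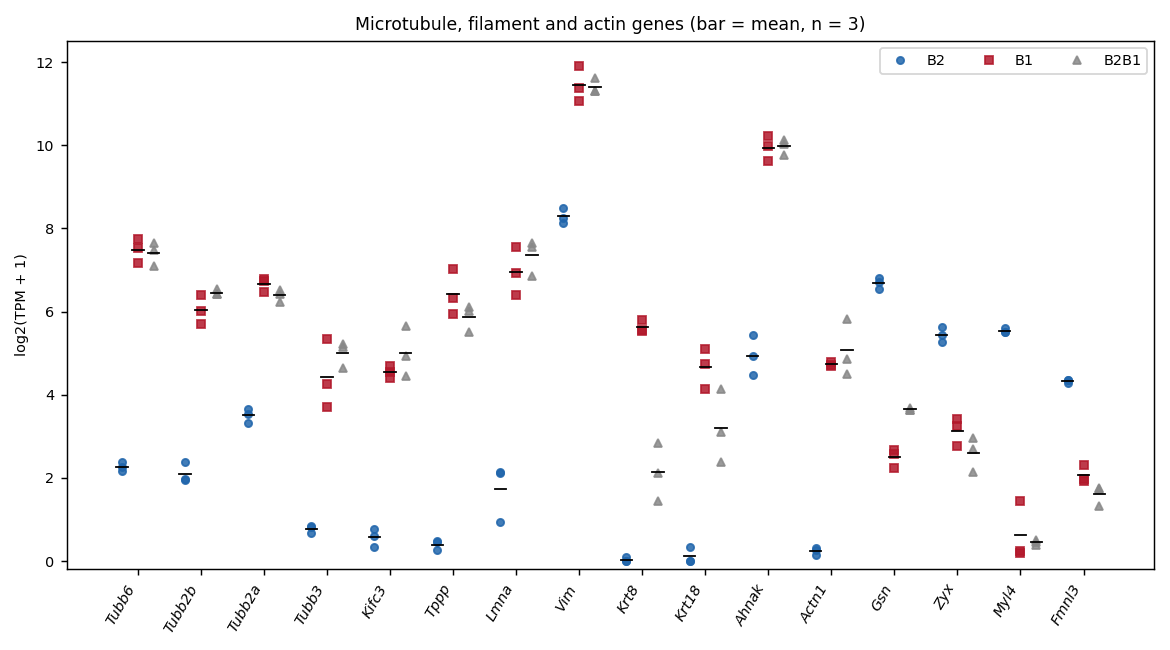
Levels of 16 microtubule, intermediate filament and actin genes as log2(TPM + 1) (y axis) in each B2 (blue circles), B1 (red squares) and B2B1 (grey triangles) library, with bars at the group means, n = 3. The tubulins, Lmna, Vim and Ahnak lie at similar heights in B1 and B2B1, whereas Krt8 is at 45.2 to 54.7 TPM in B1 and at 1.71 to 6.21 TPM in B2B1.

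Guidance receptors first known from axons also steer leukocytes. Among semaphorins, plexins, ephrins and Eph receptors 16 of 53 members were tested. Higher calls at 2-fold numbered 5 and lower calls 2 (7 and 5 at the adjusted p alone), with a median log2 fold change of 0.19. Nrp2 (neuropilin 2), a semaphorin and VEGF-C receptor, stood at 2.54, 2.23 and 1.93 TPM in B2 and at 43.7, 44.9 and 57.3 TPM in B1 (3.93 ± 0.15). Ephb4, the receptor of ephrin-B2, stood at 0.0867, 0.0501 and 0 TPM in B2 and at 12.99, 4.56 and 15.5 TPM in B1. Plxna3, a plexin that pairs with neuropilins, went from 3.59 ± 0.0621 to 8.804 ± 1.402 TPM. Sema4d, a semaphorin that B and T cells shed, was abundant in B2 and lower in B1, at 153, 136 and 133 TPM in B2 and at 37.8, 35.1 and 30.9 TPM in B1. Of these 4 genes, the receptors were thus higher and the ligand Sema4d lower, but the list did not divide this way. At the adjusted p alone, the plexins Plxnc1 (-0.645) and Plxnd1 (-0.489) were called lower. The ephrins Efna1 (0.526) and Efnb1 (0.42) were called higher on the same terms. These plexins and ephrins were named after their values were seen.

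Among Adam, Adamts and Mmp metalloproteinases and their inhibitors 17 of 85 members were tested. The 2-fold calls were 3 higher and 2 lower (6 and 4 at the adjusted p alone), with a median log2 fold change of -0.012. Timp2, an inhibitor of matrix metalloproteinases, stood at 0.278, 0.151 and 0.0265 TPM in B2 and at 19.4, 9.77 and 18.6 TPM in B1, and the matrix protease Adamts10 went from 48.3 ± 1.51 to 18.6 ± 3.19 TPM. Among tetraspanins, which organise membrane receptors, 17 of 27 members were tested. In B1, 4 were higher and 2 lower at 2-fold (5 and 7 at the adjusted p alone), with a median log2 fold change of -0.21. Cd63, a tetraspanin of late endosomes, stood at 0.333, 0.432 and 0 TPM in B2 and at 21.2, 10.02 and 31.3 TPM in B1, and the B-1 marker Cd9 went from 15.5 ± 0.507 to 145 ± 8.57 TPM. The tetraspanins that escort the protease Adam10 did not move one way: Tspan17 (1.87) and Tspan14 (1.30) were higher, and Tspan15 was lower, at 14.8, 11.9 and 9.41 TPM in B2 and at 1.69, 1.69 and 1.79 TPM in B1. Tspan3 was lower too (-1.77).

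G protein-coupled receptors (GPCRs) sense chemokines, lipids and nucleosides and position B cells within organs. Among GPCRs 62 of 222 members were tested. Counts at 2-fold were 12 higher and 19 lower (15 and 28 at the adjusted p alone), with a median log2 fold change of -0.31. The lower calls made up 30.6% of tested members, a denominator that takes in the protease Htra2, matched by its symbol. Gpr55, a receptor for lysophosphatidylinositol, stood at 1.37, 0.997 and 1.01 TPM in B2 and at 66.6, 58.6 and 68.9 TPM in B1 (4.95 ± 0.11, adjusted p = 6.38e-09, limma). Ccr1, a receptor of inflammatory chemokines, stood at 2.18, 2.44 and 2.42 TPM in B2 and at 60.9, 68.1 and 58.2 TPM in B1. Ccr9, the receptor of the gut and thymus chemokine Ccl25, stood at 1.17, 1.35 and 1.07 TPM in B2 and at 43.4, 25.5 and 37.02 TPM in B1. Adora2a, a receptor for adenosine, went from 5.73 ± 0.687 to 83.6 ± 5.91 TPM. Gpr137b, a lysosomal membrane protein, went from 12.2 ± 0.53 to 180.1 ± 25.4 TPM. On the lower side, Cnr2, the cannabinoid receptor of immune cells, stood at 111, 113 and 107 TPM in B2 and at 7.26, 11.2 and 5.48 TPM in B1. Ffar2, the receptor for short-chain fatty acids, stood at 43.1, 42.7 and 38.6 TPM in B2 and at 1.099, 1.85 and 1.99 TPM in B1. Gpr174, a lysophosphatidylserine receptor, went from 88.2 ± 5.46 to 6.52 ± 1.905 TPM. Ccr6, one of the follicular and marginal zone label markers, had a log2 fold change of -6.30 ± 0.37. Receptors for lysophospholipids were thus on both sides, since Lpar5 (1.06) was also higher at 2-fold and Lpar6 (-1.69), P2ry10 (-1.50) and Gpr34 (-3.48) were also lower, all 4 named after their values were seen.

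Behind the receptors, subunits of G proteins were called on both sides. G proteins are trimers of alpha, beta and gamma subunits, and RGS proteins speed their turning off. Among subunits and RGS proteins 32 of 59 members were tested. A 2-fold difference was called for 3 higher and 6 lower members (11 and 10 at the adjusted p alone), with a median log2 fold change of 0.15. Gnb3, a beta subunit, stood at 0.213, 0.184 and 0.108 TPM in B2 and at 178, 87.5 and 211 TPM in B1 (7.004 ± 0.35, adjusted p = 7.19e-07, limma). Gng13, a gamma subunit best known from taste and retinal cells, had a listed value of 0 in each B2 library and of 47.7, 17.95 and 62.2 TPM in B1, and Gng12, another gamma subunit, went from 1.004 ± 0.13 to 18.5 ± 3.53 TPM. The 6 lower members were 2 alpha subunits, 3 RGS proteins and the gamma subunit Gngt2 (-1.40). Gna15, a Gq-class alpha subunit of blood cells, stood at 17.2, 18.2 and 19.2 TPM in B2 and at 2.36, 3.29 and 1.58 TPM in B1. Gna12 went from 25.7 ± 0.989 to 7.24 ± 0.536 TPM. Rgs10 (-1.95), Rgs18 (-1.89) and Rgs12 (-1.34) were lower as well. Gamma subunits were thus called on both sides. Gngt2 and Rgs12 were named after their values were seen.

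Cyclic AMP is made by cyclases, broken down by phosphodiesterases and read by protein kinase A (PKA) and by exchange factors. Among these genes 35 of 73 members were tested. Of these, 7 were called higher and 6 lower at 2-fold (9 and 12 at the adjusted p alone), with a median log2 fold change of -0.16. Prkar2b, a regulatory subunit that holds PKA off, stood at 0.568, 0.754 and 0.605 TPM in B2 and at 32.8, 127 and 58.6 TPM in B1 (5.28 ± 0.42), and its sister subunit Prkar2a went from 7.38 ± 0.655 to 21.2 ± 1.89 TPM. Pde4d, a cyclic AMP phosphodiesterase, stood at 12.6, 12.9 and 9.695 TPM in B2 and at 0.135, 0.185 and 0.127 TPM in B1, close to 0 in every B1 library, whereas Pde8a, another such enzyme, went from 16.7 ± 1.29 to 51.3 ± 9.91 TPM. Pde2a, a phosphodiesterase that cyclic GMP stimulates, stood at 124, 104 and 122 TPM in B2 and at 7.13, 37.7 and 5.08 TPM in B1 (-3.24 ± 0.56). Its high value in B1 library 2 sets much of the spread, and without that library the log2 fold change was -4.06. Rapgef4, an exchange factor for Rap that cyclic AMP activates, went from 22.1 ± 2.45 to 5.72 ± 1.38 TPM. The PKA anchoring proteins split, with Akap17b higher (2.71) and Akap2 lower (-3.58).

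Ion channels set calcium entry and membrane voltage. Among channel genes 71 of 243 members were tested. At 2-fold, 12 were higher in B1 and 8 lower (23 and 20 at the adjusted p alone), with a median log2 fold change of 0.010. Cacna1e, a pore subunit of voltage-gated calcium channels, stood at 23.5, 22.5 and 21.2 TPM in B2 and at 206, 169 and 203 TPM in B1 (3.04 ± 0.11). Kcnn4, a potassium channel opened by calcium, stood at 14.6, 16.5 and 12.2 TPM in B2 and at 79.5, 109 and 88.6 TPM in B1. Mcoln2, a lysosomal cation channel, stood at 11.1, 12.9 and 12.2 TPM in B2 and at 154, 115 and 111 TPM in B1. P2rx7, a cation channel gated by extracellular ATP, went from 2.997 ± 0.251 to 12.3 ± 2.91 TPM. Hvcn1, the voltage-gated proton channel of B cells and phagocytes, stood at 412, 481 and 491 TPM in B2 and at 141, 69.1 and 211 TPM in B1. Kcng1, a modifying potassium channel subunit (-2.03), Clic3, a chloride channel-like protein (-1.09), and Itpr3, an inositol trisphosphate receptor of the ER (-1.01), were lower.

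Phosphoinositide and sphingolipid enzymes divided evenly. Of the list 85 of 121 members were tested. Called at 2-fold were 10 on the higher side and 9 on the lower (23 and 24 at the adjusted p alone, 31 and 19 after median-of-ratios and 29 and 20 after quantile scaling), with a median log2 fold change of -0.044. Inppl1 (SHIP2), a phosphatase that removes the 5-phosphate of PIP3, stood at 3.47, 3.85 and 3.54 TPM in B2 and at 30.3, 32.5 and 31.6 TPM in B1 (2.81 ± 0.08). Plcd3, a phospholipase C, went from 1.94 ± 0.197 to 19.6 ± 9.15 TPM, whereas its relative Plcg1 went from 36.5 ± 1.15 to 15.03 ± 2.401 TPM. Pik3cg, the catalytic PI3-kinase subunit that GPCRs activate, stood at 38.9, 44.2 and 38.5 TPM in B2 and at 10.8, 8.92 and 6.65 TPM in B1. Pik3ap1 (BCAP), an adaptor that brings PI3-kinase to the B cell receptor complex, stood at 146, 151 and 139.7 TPM in B2 and at 56.1, 35.4 and 39.9 TPM in B1. Dgka, a diacylglycerol kinase, was lower (-1.68). In the sphingolipid branch Sgpl1, the lyase that destroys sphingosine 1-phosphate, went from 61.3 ± 3.83 to 161 ± 23.1 TPM. Smpdl3a, a sphingomyelinase-like enzyme, went from 21.7 ± 2.49 to 77.4 ± 9.01 TPM.

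Ras and Rap regulators held 12 higher and 12 lower members at 2-fold among 53 tested of 69 members (16 and 21 at the adjusted p alone, median -0.20), together 45.3% of those tested. Rasgrp3, an exchange factor that diacylglycerol recruits, stood at 146, 174 and 147 TPM in B2 and at 7.15, 4.25 and 4.53 TPM in B1 (-4.66 ± 0.21). Rras2, a Ras-like GTPase known to bind the B cell receptor, stood at 106, 108 and 102 TPM in B2 and at 3.12, 3.45 and 3.62 TPM in B1 (-4.60 ± 0.07). Rassf4, a Ras-binding adaptor, stood at 9.63, 8.303 and 7.799 TPM in B2 and at 292, 384 and 348 TPM in B1 (5.15 ± 0.11), and its relative Rassf6 went from 0.609 ± 0.584 to 19.95 ± 7.73 TPM. Rap1gap, which turns Rap off, went from 6.204 ± 0.126 to 23.6 ± 3.54 TPM, and the Rab5 exchange factor Rin3 from 53.7 ± 2.81 to 169 ± 3.1004 TPM. The Ras GAP Rasa4 (-2.80) and the exchange factor Rasgef1b (-2.01) were lower.

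Dual-specificity phosphatases (Dusp) switch off MAP kinases. Among tyrosine and dual-specificity phosphatases 48 of 77 members were tested. Higher calls at 2-fold numbered 10 and lower calls 8 (16 and 15 at the adjusted p alone), with a median log2 fold change of -0.054. Dusp6, which acts on ERK and is itself an ERK target gene, stood at 40.9, 52.9 and 40.7 TPM in B2 and at 0.871, 1.19 and 0.852 TPM in B1 (-4.53 ± 0.13). Dusp2 stood at 154, 156 and 136 TPM in B2 and at 6.28, 8.64 and 7.11 TPM in B1. Dusp1 (-1.95) and Dusp16 (-2.29), which act on JNK and p38, were lower as well. Dusp10, also a JNK and p38 phosphatase, went from 9.13 ± 0.882 to 44.2 ± 12.04 TPM, and the ERK phosphatase Dusp5 from 2.84 ± 1.31 to 10.1 ± 2.96 TPM. Both substrate classes were thus present on both sides. Ptpn22, which restrains antigen receptor signals, was the most abundant of those named on the higher side, at 39.1, 27.3 and 72.1 TPM in B2 and at 387, 345 and 478 TPM in B1, and the receptor phosphatase Ptprs went from 8.07 ± 0.489 to 46.5 ± 5.61 TPM.

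Cytokine receptor chains were called on both sides, within the classes that share the common gamma chain or gp130 as well as between them. Among cytokine receptors, Jaks, Stats and Socs genes 55 of 84 members were tested. The 2-fold calls were 10 higher and 7 lower (13 and 21 at the adjusted p alone), with a median log2 fold change of -0.16. Il5ra, the IL-5 receptor alpha chain on which B1 cells are known to depend, stood at 15.5, 16.1 and 12.9 TPM in B2 and at 205, 135 and 191 TPM in B1 (3.47 ± 0.18). Csf2rb, the beta chain it signals through, stood at 15.5, 14.3 and 21.7 TPM in B2 and at 164, 236 and 166 TPM in B1 (3.38 ± 0.18). Il6st (gp130), the signalling chain for IL-6, stood at 9.699, 6.76 and 9.1001 TPM in B2 and at 196, 154 and 179.96 TPM in B1 (4.23 ± 0.13). Il6ra, which binds IL-6, went from 12.2 ± 0.292 to 33.7 ± 11.7 TPM. Il9r, the IL-9 receptor alpha chain, stood at 363, 396 and 379 TPM in B2 and at 4.09, 1.92 and 4.87 TPM in B1 (-6.42 ± 0.25). Il21r, that of IL-21, stood at 197, 209.7 and 197 TPM in B2 and at 22.7, 24.5 and 16.5 TPM in B1. Il2rg, the gamma chain that both need, was lower by less, 572 ± 18.5 to 243 ± 13.1 TPM. Other chains that work with it were higher: Il2rb (2.95), Il15ra (1.40) and Il2ra (1.28), of the IL-2 and IL-15 receptors. Il27ra (-0.76) and Il11ra1 (-0.35), partners of gp130, were called lower at the adjusted p alone, as was the IL-4 receptor chain Il4ra (-0.67). The interferon gamma receptor chain Ifngr1 (-1.18) and the signal transducer Stat4 (-2.34) were lower in B1. Il6ra, Il2rg, Il2rb, Il15ra, Il2ra, Il27ra, Il11ra1, Il4ra and Ifngr1 were named after their values were seen.

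Cish, a feedback inhibitor that Stat5 induces downstream of IL-5 and related cytokines, stood at 0.61, 0.211 and 0.557 TPM in B2 and at 5.96, 34.02 and 6.77 TPM in B1. This was a log2 fold change of 3.10 ± 0.60 (adjusted p = 0.00231, limma). All 3 B1 libraries were above all B2 libraries, but B1 library 2 was far above the other B1 libraries, and without it the log2 fold change was 2.34. The promoter of Cish is printed because of the place of Cish as a Stat target, a choice made with its values known. It lies on the plus strand at chr9:107296409-107296688 (RefSeq, GRCm38.p6, 250 bases before to 30 after the start), and capitals mark matches to the Stat motif TTCNNNGAA.
Cish: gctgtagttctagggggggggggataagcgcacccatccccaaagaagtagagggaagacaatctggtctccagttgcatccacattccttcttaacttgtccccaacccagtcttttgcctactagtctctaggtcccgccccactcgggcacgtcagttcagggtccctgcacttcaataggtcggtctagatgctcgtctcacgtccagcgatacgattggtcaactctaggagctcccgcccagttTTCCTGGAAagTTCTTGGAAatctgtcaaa
The window held 2 Stat matches, side by side within the 30 bases after the start, and no AP-1, kappaB or E-box match. At least 2 Stat matches were found in 30 of the 8769 promoters (0.342%), in 2 of the 604 genes called higher (0.331%) and in 3 of the 524 called lower (0.573%).

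TNF family genes were lower more often than higher. Among ligands, receptors and Trafs 38 of 56 members were tested. In B1, 6 were higher and 10 lower at 2-fold (7 and 19 at the adjusted p alone), with a median log2 fold change of -0.44. The lower calls made up 26.3% of tested members. The ligands lymphotoxin alpha (Lta), Tnf and lymphotoxin beta (Ltb), with which B2 cells maintain follicles, were all lower: Lta stood at 73.8, 78.7 and 62.3 TPM in B2 and at 0.201, 2.07 and 0.396 TPM in B1 (-5.39 ± 0.33). Tnf stood at 19.8, 17.2 and 14.3 TPM in B2 and at 0.635, 0.937 and 0 TPM in B1 (-3.61 ± 0.35). Ltb stood at 1026, 948 and 974 TPM in B2 and at 109, 155 and 71.7 TPM in B1 (-3.19 ± 0.30). Ltb remained an abundant mRNA in B1, whereas Lta and Tnf were under 3 TPM in every B1 library. Traf4, an adaptor of the family, went from 40.3 ± 1.79 to 7.49 ± 1.195 TPM. Among receptors, Tnfrsf8 (CD30) stood at 0.261, 0.0753 and 0.0661 TPM in B2 and at 67.7, 143 and 152 TPM in B1 (6.67 ± 0.28). Tnfrsf19 (Troy) stood at 0.187, 0 and 0.0474 TPM in B2 and at 18.5, 14.5 and 30.8 TPM in B1. Tnfrsf13b (TACI), a receptor for BAFF and APRIL (1.04), and Tnfrsf1b (TNFR2), a receptor for TNF (1.07), were higher by close to 2-fold.

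Ltb, Tnf and Lta are direct neighbours on chromosome 17, next to Lst1 (-0.92) on one side and Nfkbil1 (-0.41) on the other, neither of which was called at 2-fold. The 3 promoters are printed to compare genes that moved together (RefSeq, GRCm38.p6, 250 bases before to 30 after each start): Ltb on the plus strand at chr17:35194257-35194536, Tnf on the minus strand at chr17:35201978-35202257 and Lta on the minus strand at chr17:35205322-35205601. The RefSeq start of Lta lies inside the longer GENCODE model of the gene, which ends at 35205578. This locus was picked after its values were seen. Capitals mark the kappaB motif in Ltb and the Stat motif in Ltb and Lta.
Ltb: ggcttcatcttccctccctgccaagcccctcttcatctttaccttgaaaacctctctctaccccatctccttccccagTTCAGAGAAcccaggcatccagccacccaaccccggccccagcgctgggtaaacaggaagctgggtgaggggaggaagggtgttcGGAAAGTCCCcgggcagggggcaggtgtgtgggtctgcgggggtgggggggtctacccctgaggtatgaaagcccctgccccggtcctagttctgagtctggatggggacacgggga
Tnf: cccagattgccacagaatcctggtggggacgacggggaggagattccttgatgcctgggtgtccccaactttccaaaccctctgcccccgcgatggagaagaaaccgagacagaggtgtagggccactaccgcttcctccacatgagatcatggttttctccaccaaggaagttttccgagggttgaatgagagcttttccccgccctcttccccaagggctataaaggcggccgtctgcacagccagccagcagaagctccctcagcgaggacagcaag
Lta: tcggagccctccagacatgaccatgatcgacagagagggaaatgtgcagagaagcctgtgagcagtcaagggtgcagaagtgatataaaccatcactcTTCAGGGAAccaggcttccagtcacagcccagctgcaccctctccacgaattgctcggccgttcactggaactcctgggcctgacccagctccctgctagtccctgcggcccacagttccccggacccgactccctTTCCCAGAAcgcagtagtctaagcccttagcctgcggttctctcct
Ltb held 1 kappaB and 1 Stat match, Lta held 2 Stat matches, and the Tnf window held none of the 4 motifs.

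**Figure D3:**
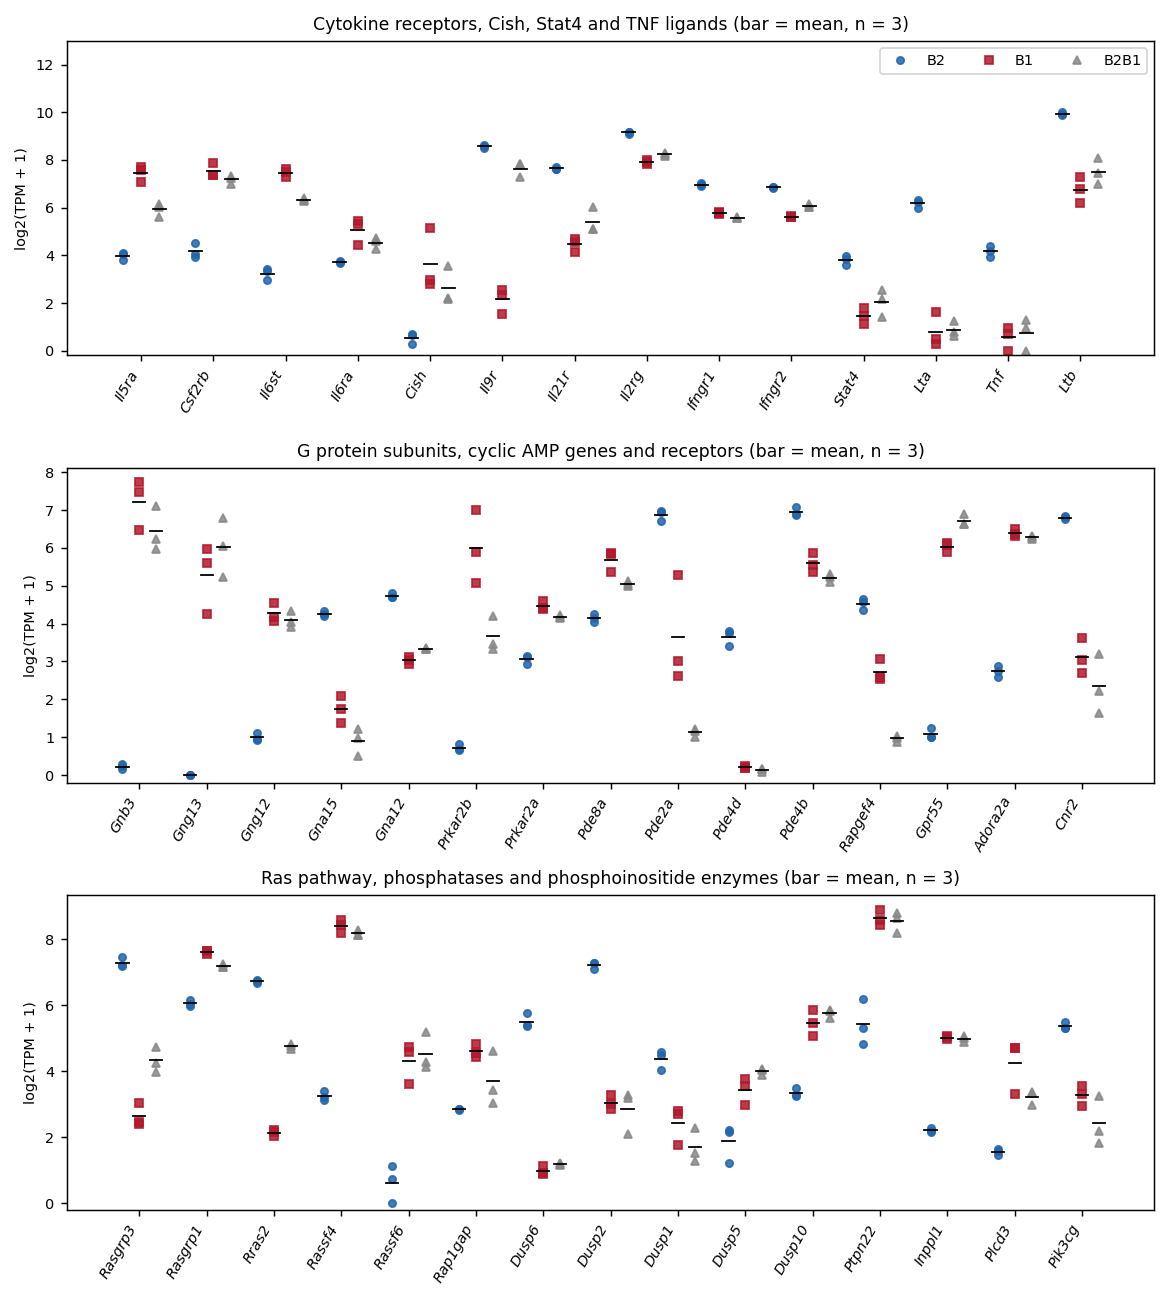
Levels as log2(TPM + 1) (y axis) of cytokine and TNF genes (top), G protein and cyclic AMP genes (middle) and Ras, phosphatase and phosphoinositide genes (bottom) in each B2 (blue circles), B1 (red squares) and B2B1 (grey triangles) library, with bars at the group means, n = 3. Il9r is near 0 to 3 in B1 and above 7 in B2 and B2B1, and the high B1 point of Cish (34.02 TPM) and of Pde2a (37.7 TPM) is library 2.

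In the TGF-beta and BMP pathway 24 of 62 members were tested. Counts at 2-fold were 1 higher and 5 lower (5 and 16 at the adjusted p alone, 5 and 9 after median-of-ratios and 4 and 12 after quantile scaling), with a median log2 fold change of -0.39. The higher call was the ligand Bmp6 (1.59). Gdf11, a ligand of the family, stood at 29.8, 28.2 and 29.1 TPM in B2 and at 0.153, 0.181 and 0.0601 TPM in B1. Smad7, the inhibitory Smad that blocks the receptors, stood at 33.3, 35.1 and 34.3 TPM in B2 and at 1.06, 1.86 and 0.662 TPM in B1 (-4.04 ± 0.20). Skil (SnoN), a co-repressor of Smads, went from 39.7 ± 4.38 to 15.8 ± 0.788 TPM. Bmp2k, a kinase of endocytic adaptors, went from 107 ± 5.46 to 13.1 ± 2.2998 TPM. The remaining lower call was the TGF-beta receptor chain Tgfbr1 (-1.78), named after its values were seen and without a statement on overlap. Members lower in B1 thus included a ligand, a receptor, an inhibitor and a co-repressor. In the Wnt pathway 24 of 72 members were tested. A 2-fold difference was called for 3 higher and 3 lower members (3 and 11 at the adjusted p alone, 6 and 7 after median-of-ratios and 5 and 8 after quantile scaling), with a median log2 fold change of -0.18. Fzd6, a Frizzled receptor, stood at 0.492, 0.559 and 0.468 TPM in B2 and at 24.4, 17.5 and 18.9 TPM in B1 (3.81 ± 0.14). Wls, which carries Wnt proteins to the surface, went from 8.31 ± 0.479 to 47.3 ± 2.23 TPM. Dkkl1, a Dickkopf-like protein, went from 3.51 ± 0.8 to 46.5 ± 10.3 TPM. The beta-catenin co-factors Bcl9 (-1.60) and Bcl9l (-2.10) were lower.

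Transcription factor families differed in how many members were called at 2-fold. Among nuclear receptors and the aryl hydrocarbon receptor 26 of 61 members were tested. Of these, 4 were called higher and 0 lower at 2-fold (6 and 13 at the adjusted p alone, 7 and 4 after median-of-ratios and 7 and 5 after quantile scaling), with a median log2 fold change of -0.20. Rarg, a retinoic acid receptor, stood at 0.33, 0.163 and 0.215 TPM in B2 and at 17.1, 12.2 and 22.4 TPM in B1. Ahr, which senses aromatic ligands, stood at 1.13, 1.51 and 1.01 TPM in B2 and at 11.1, 14.3 and 9.16 TPM in B1. Ncoa7, a co-activator, went from 11.9 ± 0.478 to 26.4 ± 3.58 TPM. Among Kruppel-like and Sp factors 16 of 26 members were tested. At 2-fold, 1 was higher in B1 and 0 lower (4 and 4 at the adjusted p alone, 7 and 3 after median-of-ratios and 6 and 3 after quantile scaling), with a median log2 fold change of 0.24. The 2-fold call was Klf10, a factor that TGF-beta induces, at 4.73, 3.55 and 4.24 TPM in B2 and at 21.7, 20.6 and 26.8 TPM in B1. Among basic helix-loop-helix and Id factors 31 of 50 members were tested. Called at 2-fold were 4 on the higher side and 4 on the lower (8 and 12 at the adjusted p alone, 9 and 8 after median-of-ratios and 8 and 9 after quantile scaling), with a median log2 fold change of -0.12. Myc, the growth regulator, stood at 48.7, 76.7 and 76.1 TPM in B2 and at 149, 241 and 198 TPM in B1. Tcf4 (E2-2) went from 40.01 ± 4.17 to 85.8 ± 13.7 TPM. Id3, which sequesters E proteins, went from 91.4 ± 2.15 to 35.3 ± 3.02 TPM. Hes1, a Notch target, went from 46.9 ± 2.69 to 15.6 ± 3.58 TPM. Tfap4 (1.02), a Myc target, was higher.

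Among homeobox, LIM-only and POU factors 30 of 120 members were tested. Higher calls at 2-fold numbered 3 and lower calls 3 (7 and 13 at the adjusted p alone, 9 and 9 after median-of-ratios and 6 and 9 after quantile scaling), with a median log2 fold change of -0.16. Lmo2, a LIM bridging protein, stood at 329.96, 349 and 326 TPM in B2 and at 17.1, 18.1 and 11.4 TPM in B1 (-4.37 ± 0.32). Satb1, a chromatin organiser, stood at 76.9, 62.8 and 70.4 TPM in B2 and at 2.66, 2.82 and 1.31 TPM in B1 (-4.47 ± 0.21). Hhex, a homeobox repressor, went from 158 ± 10.2 to 38.6 ± 4.29 TPM. Zeb2, a zinc finger homeobox factor, went from 8.38 ± 0.306 to 18.3 ± 0.359 TPM. The Zfp genes, mostly zinc finger factors, were the largest list, of which 288 of 349 members were tested. The 2-fold calls were 8 higher and 7 lower (35 and 102 at the adjusted p alone, 55 and 72 after median-of-ratios and 44 and 78 after quantile scaling), with a median log2 fold change of -0.16. Their 2-fold share was 2.78% higher and 2.43% lower, below that of all genes. Zfp608 stood at 47.7, 42.8 and 46.3 TPM in B2 and at 0.25, 0.378 and 0.213 TPM in B1 (-5.19 ± 0.12). Zfp318, which regulates the switch between surface IgM and IgD transcripts, stood at 95.9, 84.5 and 95.2 TPM in B2 and at 13.5, 14.4 and 13.4 TPM in B1. Zfp36 (tristetraprolin), which destroys AU-rich mRNAs including that of Tnf, went from 283 ± 8.61 to 103 ± 3.87 TPM, and Zfp1 had a log2 fold change of -1.61. Zfp811 (3.35), Zfp703 (1.999), Zfp395 (1.25) and Zfp516 (1.21) were higher.

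Among histone and DNA modifying enzymes 89 of 101 members were tested. In B1, 3 were higher and 1 lower at 2-fold (12 and 45 at the adjusted p alone, 17 and 27 after median-of-ratios and 14 and 30 after quantile scaling), with a median log2 fold change of -0.32. Prdm1 (Blimp-1), the driver of antibody secretion, stood at 0.471, 0.764 and 0.522 TPM in B2 and at 23.99, 10.9 and 13.2 TPM in B1. Hdac9, a class IIa histone deacetylase, stood at 9.49, 10.8 and 7.99 TPM in B2 and at 79.8, 32.2 and 52.04 TPM in B1, and the methyltransferase Smyd2 went from 5.18 ± 0.995 to 17.2 ± 4.195 TPM. Among Trim, Rnf and Neurl ubiquitin ligases 104 of 157 members were tested. Counts at 2-fold were 2 higher and 13 lower (12 and 48 at the adjusted p alone, 17 and 35 after median-of-ratios and 15 and 37 after quantile scaling), with a median log2 fold change of -0.23. The higher calls were Trim40 (3.23) and Trim6 (1.06). Neurl3 stood at 265, 245 and 244 TPM in B2 and at 16.6, 12.8 and 14.3 TPM in B1 (-4.03 ± 0.11). Trim59 went from 90.3 ± 11.3 to 11.5 ± 4.22 TPM and Rnf157 from 17.7 ± 2.17 to 1.91 ± 0.602 TPM. Neurl2 went from 27.2 ± 1.76 to 3.65 ± 1.05 TPM. Among clock genes 17 of 21 members were tested. A 2-fold difference was called for 2 higher and 3 lower members (5 and 5 at the adjusted p alone), with a median log2 fold change of 0.009. Nfil3, a repressor of the D-box arm of the clock, stood at 1.84, 1.42 and 2.05 TPM in B2 and at 24.7, 26.7 and 18.8 TPM in B1. Bhlhe41, a repressor of the Clock and Arntl pair, stood at 1.49, 2.11 and 0.817 TPM in B2 and at 59.3, 72.6 and 70.5 TPM in B1. Arntl (Bmal1), the activator, went from 29.7 ± 3.31 to 13.6 ± 1.87 TPM. Of the genes named here, the repressors Nfil3 and Bhlhe41 were thus higher and the activator Arntl lower. Bhlhe40, the relative of Bhlhe41, was lower (-1.16). Clock, the partner of Arntl, was not called (0.071, adjusted p = 0.903 in limma) and was named after its values were seen.

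Transporters of the Slc families were numerous and mixed. Of these carriers 183 of 367 members were tested. Of these, 14 were called higher and 17 lower at 2-fold (31 and 68 at the adjusted p alone, 47 and 48 after median-of-ratios and 43 and 57 after quantile scaling), with a median log2 fold change of -0.18. The 2-fold shares were 7.65% higher and 9.29% lower, against 6.97% and 6.34% of all tested genes, so the list as a whole stood out little. Slc7a7, which exports cationic amino acids in exchange for neutral ones, stood at 6.09, 6.02 and 4.71 TPM in B2 and at 59.4, 71.5 and 66.8 TPM in B1. Slc39a4, a zinc importer, stood at 1.11, 1.21 and 1.199 TPM in B2 and at 20.1, 16.5 and 17.6 TPM in B1. Slc27a3, an acyl-CoA synthetase of the fatty acid transport family, went from 2.41 ± 0.155 to 16.4 ± 6.67 TPM, and the amino acid transporter Slc36a4 from 2.33 ± 0.496 to 11.4 ± 1.86 TPM. Slc2a6, a glucose transporter family member (-2.34), and Slc14a1, a urea transporter (-2.16), were lower. Slc15a2, a peptide transporter, stood at 38.7, 29.9 and 25.8 TPM in B2 and at 9.79, 0.562 and 14.6 TPM in B1 (-2.32 ± 0.87, adjusted p = 0.0499, limma). Without B1 library 2 its log2 fold change was -1.31 and without B1 library 3 it was -2.96, and its call was lost under 11 of the 15 alternatives. Among iron genes 20 of 26 members were tested. At 2-fold, 1 was higher in B1 and 0 lower (4 and 6 at the adjusted p alone, 6 and 4 after median-of-ratios and 6 and 4 after quantile scaling), with a median log2 fold change of -0.16. The 2-fold call was Hmox1, which frees iron from heme (1.38). The ferritin chains Ftl1 (765 ± 9.13 to 1516 ± 48.6 TPM) and Fth1 (1332 ± 44.95 to 2624 ± 533 TPM), which store iron, were called higher just short of 2-fold.

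Genes of glutathione, thioredoxin and oxidant defence were higher more often than lower. Of the list 62 of 91 members were tested. Called at 2-fold were 8 on the higher side and 2 on the lower (25 and 11 at the adjusted p alone, 32 and 8 after median-of-ratios and 31 and 8 after quantile scaling), with a median log2 fold change of 0.22. Mgst1 and Mgst2 are membrane-bound glutathione transferases, and Mgst1 stood at 2.73, 2.37 and 1.84 TPM in B2 and at 52.9, 47.5 and 43.3 TPM in B1 while Mgst2 went from 18.9 ± 1.34 to 78.7 ± 15.4 TPM. The transferase Gstt3 went from 0.812 ± 0.228 to 13.6 ± 1.72 TPM. Gpx7, a peroxidase of the ER, went from 0.709 ± 0.0975 to 12.4 ± 1.31 TPM. Sesn1, a stress-induced inhibitor of mTORC1, was the lowest of the named members, at 250.2, 338 and 367 TPM in B2 and at 78.1, 60.98 and 67.6 TPM in B1.

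Cholesterol and fatty acid synthesis leaned the other way. Among these genes 38 of 40 members were tested. Higher calls at 2-fold numbered 1 and lower calls 8 (4 and 21 at the adjusted p alone), with a median log2 fold change of -0.37. The count of lower members at 2-fold was 4 after median-of-ratios scaling and 5 after quantile normalization. Acacb, an acetyl-CoA carboxylase, was the higher call (1.999). Sqle, the first oxygenase of sterol synthesis, stood at 12.8, 21.2 and 18.1 TPM in B2 and at 3.02, 5.31 and 3.04 TPM in B1 (-1.94 ± 0.21). Insig1, which retains the sterol sensor in the ER and is itself a sterol-regulated gene, went from 30.4 ± 2.65 to 13.1 ± 2.37 TPM, and the acyl-CoA synthetase Acsl3 from 12.1 ± 0.885 to 3.19 ± 0.375 TPM. In fatty acid oxidation, peroxisomes and lipid droplets 75 of 102 members were tested. The 2-fold calls were 8 higher and 3 lower (19 and 20 at the adjusted p alone, 27 and 10 after median-of-ratios and 26 and 11 after quantile scaling), with a median log2 fold change of -0.026. Lipa, the lysosomal acid lipase, stood at 31.7, 31.4 and 24.1 TPM in B2 and at 89.3, 86.5 and 91.4 TPM in B1. Plin3, a lipid droplet coat protein, stood at 22.3, 19.6 and 21.5 TPM in B2 and at 86.1, 92.2 and 109.7 TPM in B1. Echdc3, a hydratase-like mitochondrial protein, stood at 0.519, 0.385 and 0.621 TPM in B2 and at 9.96, 9.41 and 9.49 TPM in B1. Acot7, an acyl-CoA thioesterase, was higher (1.46). Cd36, a fatty acid and lipoprotein scavenger receptor that marks marginal zone cells among B cells, stood at 46.6, 57.2 and 42.8 TPM in B2 and at 10.1, 19.7 and 6.58 TPM in B1, and Pnpla7, a lysophospholipase, had -1.01.

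Glycosyltransferases and sulfotransferases were higher and lower in like numbers. Of the list 87 of 148 members were tested. In B1, 13 were higher and 14 lower at 2-fold (25 and 28 at the adjusted p alone), with a median log2 fold change of -0.015, and 31.0% of tested members passed 2-fold. Chst7, which sulfates chondroitin, stood at 0.0584, 0.152 and 0.133 TPM in B2 and at 41.4, 33.1 and 41.7 TPM in B1 (5.15 ± 0.16), and its relative Chst10, which makes the HNK-1 epitope, went from 55.6 ± 11.7 to 10.2 ± 0.85 TPM. Of the sialyltransferases, St3gal4 went from 3.26 ± 0.164 to 31.99 ± 0.687 TPM. St3gal6 went from 37.1 ± 3.93 to 8.44 ± 3.65 TPM. Of the enzymes that start O-glycans, Galnt7 went from 9.98 ± 0.553 to 69.1 ± 7.84 TPM. Galnt6 went from 30.9 ± 1.54 to 2.17 ± 0.474 TPM. In 3 classes, then, one enzyme was higher and another lower. B4galt6, a lactosylceramide synthase, was higher (3.05), and Gcnt1, which branches core 2 O-glycans, lower (-2.55).

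Among cathepsins, proton pump subunits and lysosome membrane genes 68 of 82 members were tested. Counts at 2-fold were 9 higher and 5 lower (23 and 19 at the adjusted p alone, 31 and 14 after median-of-ratios and 29 and 14 after quantile scaling), with a median log2 fold change of 0.039. Grn, progranulin, stood at 31.9, 34.8 and 28.6 TPM in B2 and at 129, 165 and 136 TPM in B1. Laptm4b, a lysosomal membrane protein, went from 2.97 ± 0.46 to 12.3 ± 3.101 TPM. Its relative Laptm5, which lowers surface B cell receptor, stood at 698, 621 and 623 TPM in B2 and at 157, 66.4 and 158 TPM in B1. The peptidases Lgmn (legumain, -1.65) and Ctsa (cathepsin A, -1.36) and the pump subunit Atp6v1g2 (-1.06) were lower. Among one-carbon, serine and nucleotide genes 48 of 50 members were tested. A 2-fold difference was called for 3 higher and 3 lower members (7 and 12 at the adjusted p alone, 13 and 7 after median-of-ratios and 9 and 8 after quantile scaling), with a median log2 fold change of -0.035. Each 2-fold share was 6.25%, near the 6.97% higher and 6.34% lower of all tested genes. Phgdh, the first enzyme of serine synthesis, went from 50.2 ± 2.16 to 166 ± 45.3 TPM. Prps2, which makes the ribose donor of nucleotides, went from 37.9 ± 3.01 to 152 ± 10.2 TPM. The salvage kinases split: Uck2, for uridine and cytidine, was higher (1.41), and Dck (-1.75) and Tk1 (-1.61), for deoxynucleosides, were lower. Impdh1, of guanine nucleotide synthesis, was lower (-1.58).

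The basic machinery of the cell showed few 2-fold differences, and its counts at the adjusted p alone depended on scaling. Cytosolic ribosomal proteins had 27 higher and 5 lower of 81 tested as deposited, 54 and 1 after median-of-ratios scaling and 16 and 9 after quantile normalization, and 0 and 1 at 2-fold (median 0.14). The 2-fold call, Rpl26, went from 3940.3 ± 109 to 1955 ± 74.2 TPM. Nuclear-encoded respiratory chain genes had 20 higher and 10 lower of 88 (median 0.10), 43 and 3 with median-of-ratios and 37 and 3 with quantile scaling, and the single 2-fold call was Atp5sl, a complex I assembly factor, 99.4 ± 2.87 to 22.998 ± 5.14 TPM. Proteasome subunits had 4 higher and 13 lower of 48 (median -0.11), a lean that turned to 8 and 0 with median-of-ratios and 6 and 2 with quantile scaling. Psmd14, the deubiquitinase of the lid, was called higher at 2-fold, at 64.2, 74.8 and 64.3 TPM in B2 and at 196, 173 and 158 TPM in B1. Aminoacyl-tRNA synthetases had 1 higher and 14 lower of 40 (median -0.14), 6 and 9 with median-of-ratios and 6 and 10 with quantile scaling, and 2 were lower at 2-fold: Aars2 (-1.14) and Farsb (-1.91), which was -2.52 without B1 library 2.

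Translation factors had 15 higher and 15 lower of 61 (median -0.027), 23 and 9 after median-of-ratios and 19 and 11 after quantile scaling, with 1 lower at 2-fold, Eif4e3, a cap-binding protein, 14.4 ± 2.39 to 3.17 ± 0.374 TPM. Splicing factors had 2 higher and 42 lower of 82 (median -0.22), 7 and 16 with median-of-ratios and 5 and 18 with quantile scaling. Their 2-fold calls were Snrnp25, of the minor spliceosome, 141 ± 10.6 to 34.6 ± 2.87 TPM, and Prpf40b (-1.004). ER chaperone and secretory genes leaned higher under every scaling, with 19 higher and 6 lower of 57, 29 and 2 with median-of-ratios and 28 and 2 with quantile scaling, and 5 and 0 at 2-fold (median 0.17). Derl3, of ER-associated degradation, stood at 2.53, 2.82 and 4.32 TPM in B2 and at 24.6, 54.3 and 31.1 TPM in B1. Ern1 (IRE1), the sensor that splices Xbp1, stood at 6.02, 6.003 and 6.48 TPM in B2 and at 37.3, 27.04 and 25.03 TPM in B1. Spcs3, of the signal peptidase (1.29), and Sec24d, of the COPII coat (1.75), were higher. Among autophagy genes 35 of 39 members were tested. Of these, 1 was called higher and 0 lower at 2-fold (8 and 13 at the adjusted p alone, 14 and 11 after median-of-ratios and 13 and 11 after quantile scaling), with a median log2 fold change of -0.14. Optn, an autophagy receptor, went from 7.09 ± 0.584 to 18.7 ± 4.27 TPM. Among Rab GTPases 47 of 66 members were tested. At 2-fold, 3 were higher in B1 and 2 lower (15 and 8 at the adjusted p alone, 20 and 6 after median-of-ratios and 19 and 6 after quantile scaling), with a median log2 fold change of 0.092. Rab31, of the trans-Golgi and endosomes, stood at 5.73, 5.66 and 6.83 TPM in B2 and at 66.4, 58.5 and 73.8 TPM in B1. Rab3b, of regulated secretion, stood at 0, 0.0332 and 0 TPM in B2 and at 12.9, 6.203 and 11.9 TPM in B1, and Rab37 (-1.48) and the exchange factor Rab3ip (-1.10) were lower.

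The immune families beyond the label markers were mixed as well. Among Fc receptor-like, Ms4a, Siglec, Cd300 and C-type lectin genes 42 of 94 members were tested. Called at 2-fold were 11 on the higher side and 10 on the lower (15 and 12 at the adjusted p alone), with a median log2 fold change of -0.039, so 50.0% of tested members passed 2-fold. Cd300lf, an inhibitory lipid-sensing receptor, stood at 8.25, 7.36 and 6.83 TPM in B2 and at 104, 130.4 and 91.3 TPM in B1 (3.68 ± 0.17). Cd72, an inhibitory co-receptor of B cells, stood at 429, 409 and 412 TPM in B2 and at 22.3, 39.2 and 22.2 TPM in B1 (-3.90 ± 0.21). The Fc receptor-like genes split, with Fcrl5 at 29.3 ± 2.21 to 122.6 ± 48.5 TPM and Fcrl1 at 492 ± 4.94 to 39.4 ± 11.3 TPM. Pira2, an activating receptor with near-identical copies, was higher (1.86), as was Fcgr4, an IgG receptor of myeloid cells, at 4.33, 2.96 and 2.05 TPM in B2 and at 13.5, 7.96 and 8.58 TPM in B1. Ms4a4c, one of a family of close copies, was lower (-3.16), and Fcer2a (CD23) had -6.90 ± 0.20. Among Gimap GTPases, lymphocyte survival factors that cluster on one chromosome, all 8 members were tested, 3 were lower and 0 higher at 2-fold, 5 and 0 at the adjusted p alone, and the median was -0.85. Gimap6 went from 952 ± 17.2 to 432 ± 65.5 TPM, Gimap7 had -1.36 and Gimap9 -1.21.

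Among serpins, cystatins and complement genes 34 of 106 members were tested. Higher calls at 2-fold numbered 4 and lower calls 6 (8 and 12 at the adjusted p alone), with a median log2 fold change of -0.15. Serpinb1a, an inhibitor of neutrophil-type proteases, stood at 242, 298 and 296 TPM in B2 and at 26.5, 23.7 and 23.05 TPM in B1. Serpina3g, one of several close copies, stood at 227, 291 and 269 TPM in B2 and at 39.2, 109.9 and 33.8 TPM in B1. Cd55, which speeds the decay of complement convertases, went from 519 ± 46.7 to 139 ± 16.97 TPM, and Cr2, the complement receptor of the label markers, had -6.34. Among Slamf, Ly6 and GPI-anchored surface genes 30 of 57 members were tested. The 2-fold calls were 5 higher and 6 lower (6 and 11 at the adjusted p alone), with a median log2 fold change of -0.27. Slamf9 stood at 1.76, 3.15 and 1.82 TPM in B2 and at 115, 44.4 and 121 TPM in B1 (4.76 ± 0.36), while its relatives Slamf1 (-2.06) and Slamf6 (-2.23) were lower. Nt5e (CD73), which makes adenosine from AMP, stood at 1.13, 0.827 and 0.834 TPM in B2 and at 12.98, 8.402 and 10.4 TPM in B1. The adenosine receptor Adora2a was higher as well, whereas Adora3, another adenosine receptor, was called lower at 2-fold (-1.10). Adora3 was named after its values were seen, and overlap of its libraries is not stated. Cd24a, a glycan-rich surface protein, went from 315 ± 25.3 to 779 ± 108 TPM. Ly6d went from 2944 ± 76.5 to 1462 ± 176 TPM. Sdc4, a heparan sulfate proteoglycan, was lower (-1.66). Among Bcl2 family genes and caspases 33 of 43 members were tested. In B1, 3 were higher and 0 lower at 2-fold (13 and 9 at the adjusted p alone), with a median log2 fold change of 0.093. Mcl1, which blocks Bax and Bak, stood at 499, 457 and 452 TPM in B2 and at 1093, 1058 and 1139.7 TPM in B1. Casp4 (caspase 11), the sensor of cytosolic endotoxin, stood at 20.2, 19.7 and 16.9 TPM in B2 and at 64.1, 61.1 and 49.7 TPM in B1. Bcl2a1d, one of several close copies of the survival gene A1, went from 18.02 ± 1.198 to 40.2 ± 10.2 TPM.

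In several families one gene was higher and a close relative lower. Of 374 list members that were called at 2-fold, had a mean of at least 5 TPM over the B1 and B2 libraries and did not overlap between them, the proteins of 373 could be compared in 988 pairs of opposite direction, and 8 pairs were at least 40% identical. The closest was Myo1e and Myo1f (71.3% identical), both long-tailed class I myosins: Myo1e stood at 68.6, 67.2 and 70.6 TPM in B2 and at 181, 113 and 139 TPM in B1. Myo1f stood at 20.4, 19.5 and 16.2 TPM in B2 and at 0.508, 1.31 and 0.32 TPM in B1. The phosphate importers Slc20a2 (12.2 ± 0.0968 to 41.7 ± 2.98 TPM) and Slc20a1 (70.3 ± 2.79 to 17.4 ± 4.696 TPM), 57.5% identical, crossed over, and so did the mitochondrial ATP and phosphate carriers Slc25a24 (1.16) and Slc25a25 (-1.03), 57.2% identical. Rasgrp1 stood at 65.1, 70.5 and 61.7 TPM in B2 and at 200.4, 201 and 187 TPM in B1, against -4.66 for Rasgrp3, to which it is 45% identical. The circadian repressors Bhlhe41 (4.82) and Bhlhe40 (-1.16) were 42.6% identical, and the phosphatases Dusp5 (1.56) and Dusp1 (-1.95) 44.6%. Ccr9 (4.02) and Ccr7, the receptor that leads B cells to T cell zones, at 293, 246 and 277 TPM in B2 and at 46.1, 73.2 and 32.6 TPM in B1, were 41.1% identical. The serpins Serpinb6b (1.40) and Serpinb1a (-3.46) were 47.9% identical. In none of these pairs did the libraries of the groups overlap for either gene.

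**Figure D4:**
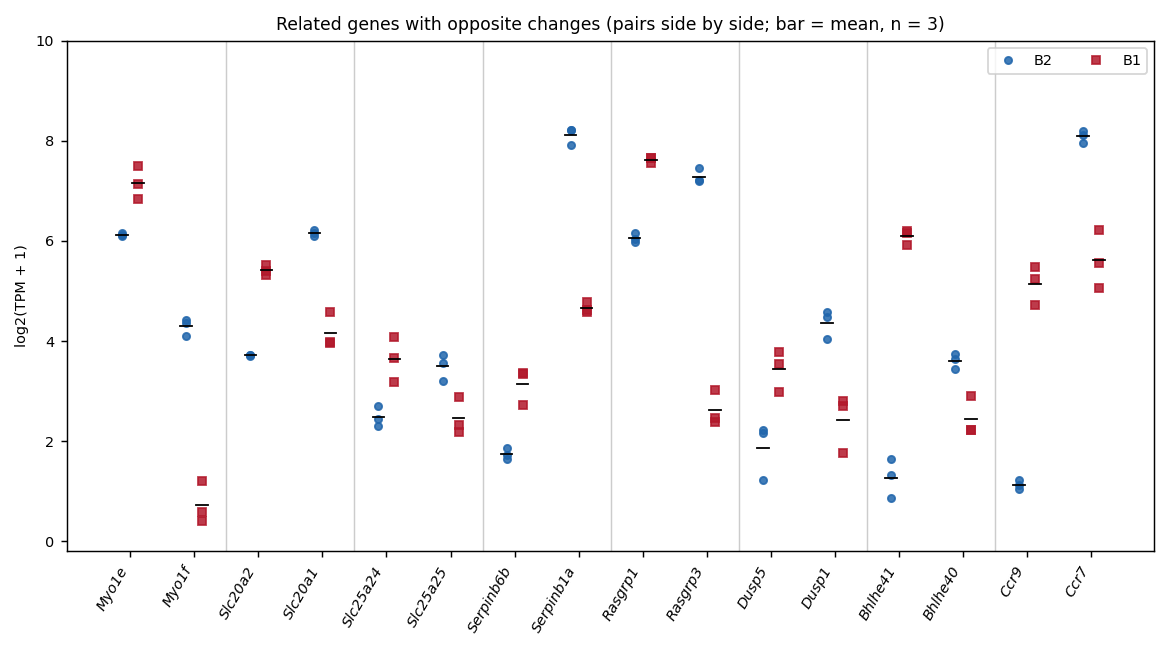
Levels as log2(TPM + 1) (y axis) of 8 pairs of related genes in each B2 (blue circles) and B1 (red squares) library, with bars at the group means, n = 3, and grey lines between pairs. The first gene of each pair is higher in B1 and the second lower, as for Rasgrp1 (log2 fold change 1.56) and Rasgrp3 (-4.66).

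Genome order showed 5 runs of at least 4 neighbouring tested genes that were all called at 2-fold in one direction, the S100 run being the longest. Also on chromosome 3, Dclk2 (start 86786150), Cd1d1, Cd5l and Fcrl1 (end 87403967) were all lower. Dclk2, a microtubule-binding kinase, stood at 21.3, 19.7 and 18.3 TPM in B2 and at 1.31, 1.66 and 1.61 TPM in B1. Cd5l, a secreted protein known from macrophages, stood at 1.82, 2.37 and 2.43 TPM in B2 and at 0.0335, 0.582 and 0.422 TPM in B1. On chromosome 4, Dhrs3 (start 144892534), Tnfrsf1b, Tnfrsf8, Smarca5-ps and Gm13212 (end 145625343) were higher. Beyond 1 tested gene that was not called and whose libraries overlapped, Znf41-ps, 4 further gene models named only by number (Gm13238, Gm13051, Gm13251 and 1700095A21Rik, 145837219 to 146546873) were higher as well. Dhrs3, which reduces retinal, stood at 0.312, 0.473 and 0.827 TPM in B2 and at 2.91, 2.98 and 25.8 TPM in B1, and its log2 fold change of 2.30 ± 0.63 was 1.37 without B1 library 3. The last run, also on chromosome 4, held 9430015G10Rik (start 156109998), Agrn, Isg15 and AW011738 (end 156206028), all lower. Agrn (agrin) stood at 4.28, 3.47 and 3.98 TPM in B2 and at 0.728, 1.097 and 0.769 TPM in B1. Isg15, an interferon-induced ubiquitin-like protein, stood at 30.7, 28.3 and 25.02 TPM in B2 and at 11.5, 11.5 and 9.38 TPM in B1. Some members of the runs were weakly supported. When single libraries were left out, the call was lost in 5 of 6 fits for 1700095A21Rik (adjusted p of 0.0552 to 0.115 in limma) and in 2 for Cd5l, without B1 library 1 (-1.09, adjusted p = 0.0591) and without B2 library 3 (-1.22, 0.0512). That of Gm13051 was lost without B2 library 1 (1.15, 0.0669). Without these calls the runs that hold Cd5l, Gm13051 and 1700095A21Rik are broken.

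**Figure D5:**
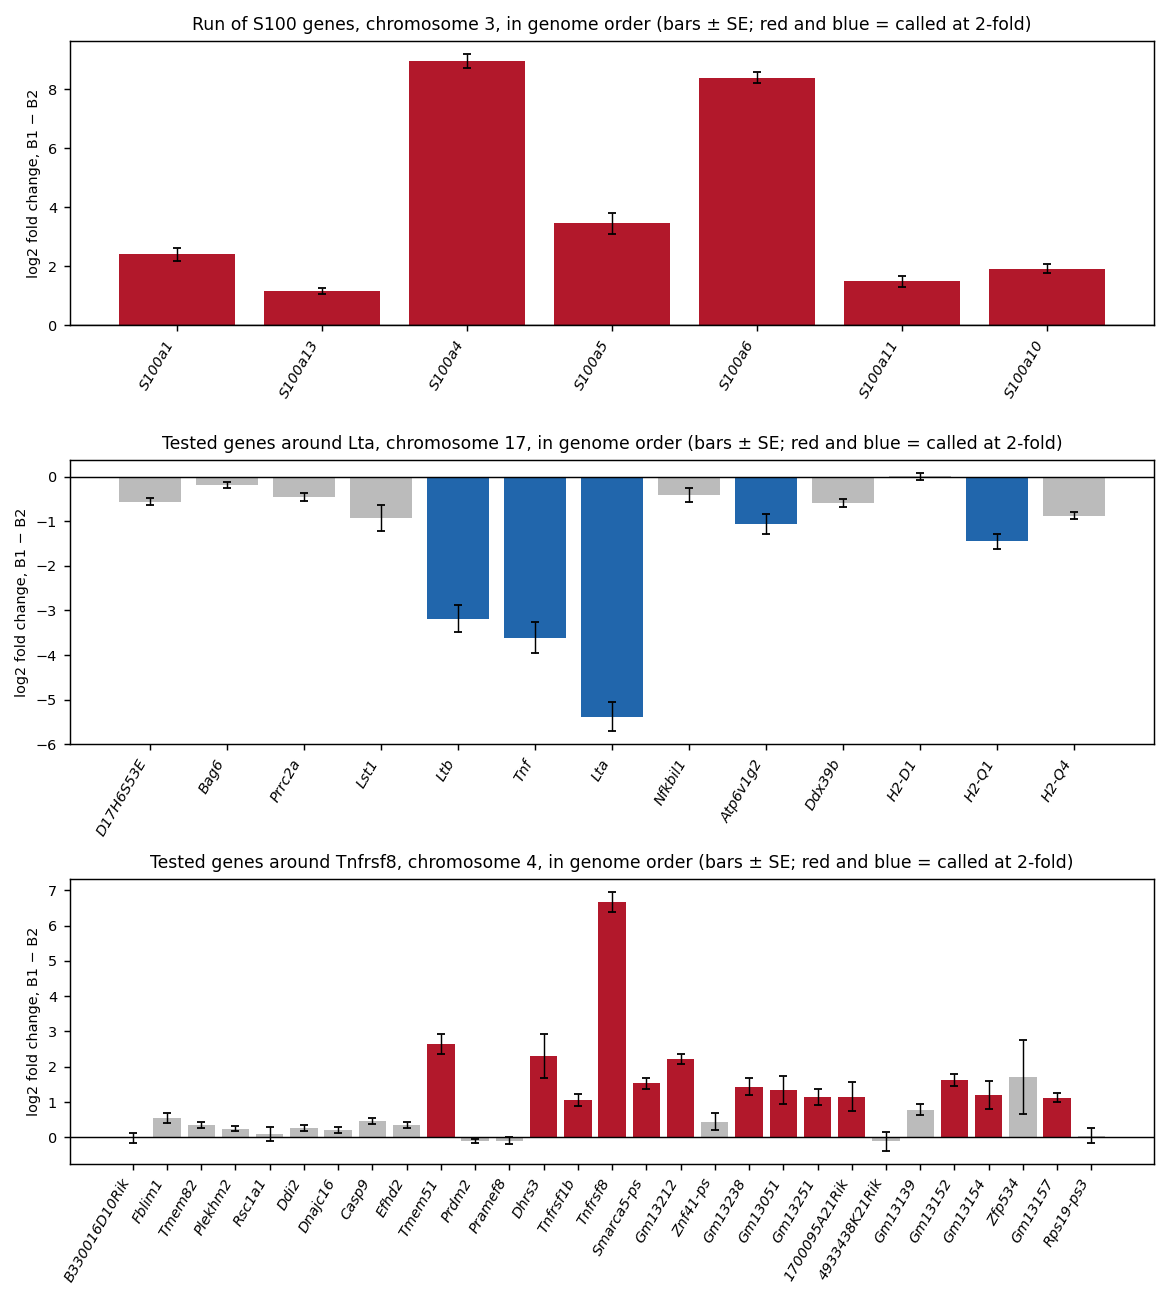
Log2 fold change, B1 minus B2 (y axis, bars ± SE), of neighbouring tested genes in genome order for the S100 run on chromosome 3 (top), the Lta locus on chromosome 17 (middle) and the region of Tnfrsf8 on chromosome 4 (bottom), with genes called at 2-fold in red (higher) or blue (lower) and the others in grey. Ltb, Tnf and Lta reach -3.19, -3.61 and -5.39 between Lst1 and Nfkbil1, which were not called at 2-fold.

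In the ranking of called genes by log2 fold change, the ranks 11 to 30 in each direction held genes outside these families. On the higher side, Sox5, an HMG-box transcription factor, stood at 0.266, 0.232 and 0.188 TPM in B2 and at 48.5, 52.4 and 50.4 TPM in B1 (5.39 ± 0.11, adjusted p = 6.12e-09, limma). Mafa, a bZIP factor best known as an insulin gene activator, stood at 0.951, 0.235 and 0.103 TPM in B2 and at 49.5, 26.96 and 78.7 TPM in B1. Atf3, a stress-induced bZIP factor, stood at 0.537, 0.232 and 0.562 TPM in B2 and at 44.5, 22.6 and 66.1 TPM in B1. Fbxw13, an F-box gene of a cluster of copies, stood at 0.558, 1.05 and 0.991 TPM in B2 and at 87.5, 98.5 and 64.96 TPM in B1. Gramd2 stood at 0.102, 0.266 and 0 TPM in B2 and at 31.2, 63.9 and 27.7 TPM in B1. Cd80, a co-stimulatory ligand of CD28 and CTLA-4, went from 0.868 ± 0.106 to 55.7 ± 13.4 TPM, and Ctla4 itself had a listed value of 0 in each B2 library and of 67.2, 25.6 and 112 TPM in B1. Itgam, an integrin chain among the label markers, had 5.01. On the lower side, Itgb3, the integrin beta 3 chain, stood at 34.002, 27.3 and 28.9 TPM in B2 and at 0.0775, 0.14 and 0.0697 TPM in B1 (-4.82 ± 0.13). Lpcat2, which makes platelet-activating factor, stood at 28.6, 31.6 and 24.9 TPM in B2 and at 0.189, 0.299 and 0.0745 TPM in B1. Nlrc3, an inhibitory NOD-like receptor, stood at 31.7, 33.3 and 30.1 TPM in B2 and at 0.563, 0.515 and 0.326 TPM in B1. Asb2, a ubiquitin ligase adaptor that degrades filamins, stood at 20.6, 18.5 and 15.4 TPM in B2 and at 0.0491, 0.0388 and 0.0773 TPM in B1. Chchd10, a mitochondrial intermembrane protein, stood at 133, 136 and 110.03 TPM in B2 and at 4.93, 12.9 and 3.495 TPM in B1. Il12a, the p35 chain of IL-12 and IL-35, stood at 46.3, 55.7 and 51.9 TPM in B2 and at 2.69, 0.452 and 3.24 TPM in B1, and Tsga13 had a listed value of 0 in each B1 library and of 17.1, 25.1 and 23.2 TPM in B2. The remaining genes of these ranks are described with their families. Of the first 10 places, Vpreb3, a chaperone of the pre-B receptor, stood at 267, 274 and 282 TPM in B2 and at 1.53, 12.8 and 1.204 TPM in B1 (-6.02, and -6.86 without B1 library 2).

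The B2B1 libraries share tissue and strain name with B1, so they show which B1 levels a second group of peritoneal B cells also had. The B1 libraries enter both comparisons, so the values are given side by side and no overlap is computed. For 5 genes named above the difference, B1 minus B2B1, was not called. It was 0.08 ± 0.11 for Sox5 (adjusted p = 0.667, limma), 0.05 ± 0.26 for Anxa2 (0.913), 0.08 ± 0.17 for Tubb6 (0.779), -0.03 ± 0.24 for Ahnak (0.941) and 0.03 ± 0.15 for Nrp2 (0.907). Others were high in B1 and well below that in B2B1. Krt8 stood at 6.21, 1.71 and 3.36 TPM in B2B1, a difference of 3.49 ± 0.29 (adjusted p = 0.00018, limma), and Fbxw13 at 6.42, 14.2 and 6.16 TPM (3.16 ± 0.29, 0.000238). Fzd6 stood at 1.98, 2.15 and 1.73 TPM (2.84 ± 0.14, 9.42e-06), Ephb4 at 0.622, 1.15 and 0.567 TPM (2.62 ± 0.36, 0.00171) and Prkar2b at 17.3, 9.103 and 10.03 TPM (2.33 ± 0.42, 0.00611). For the IL-5 receptor, Il5ra stood at 69.8, 47.6 and 64.3 TPM (1.53 ± 0.18, 0.000907), while its beta chain Csf2rb stood at 151, 159.5 and 127 TPM (0.35 ± 0.18, 0.208). Among genes low in B1, Il9r stood at 224, 229 and 153 TPM in B2B1 (-5.49 ± 0.25, 7.52e-06), Il12a at 43.6, 42.3 and 75.7 TPM (-4.22 ± 0.38, 0.000234) and Rras2 at 27.6, 26.1 and 24.7 TPM (-2.63 ± 0.07, 3.43e-07). Lta, in contrast, stood at 0.701, 1.396 and 0.551 TPM, and its difference of -0.10 ± 0.33 was not called (0.86). Cd3g stood at 0.26, 0.346 and 0.512 TPM in B2B1 (2.65 ± 0.20, 0.000154), and the macrophage markers summed to between 171 and 334 TPM there, above both other groups. These genes were chosen for this paragraph after their values were seen.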

How the data were processed

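RNA-seq of mouse B cells was analysed in 9 libraries, 3 each of splenic B2, peritoneal B1 and peritoneal B2B1 cells, grouped by their labels. A column kit gave the RNA for TruSeq libraries, per the labels' protocols. Per the submitters' processing notes, the tools were CASAVA 1.8.2 and kallisto, on the build mm10. Which kallisto version and transcripts were used, and how genes were formed from transcripts, the sources used here do not say. Deposited by the authors were TPM per gene for 22178 symbols, which correct for length and library total but keep no read counts, so no count model or counting interval could be used. Not analysed here were a second deposited table of a short signature, immunoglobulin genes and genes of the mitochondrial genome.

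The 11099 genes with a mean of at least 1 TPM over 9 libraries were analysed as log2(TPM + 1). At that limit Hist2h3c1 was just inside (mean 1.0012 TPM, 0 in B2 and 3.003 in B1) and 8030423F21Rik just outside (0.999 TPM, 1.314 and 0.949). One linear model with 3 group means over all 9 libraries used limma 3.58.1 under R 4.3.3, with moderated variances that follow the mean level (eBayes, trend on, prior degrees of freedom 2.92), and was tested on simulated data. P-values are two-sided and Benjamini-Hochberg adjusted over all 11099 genes, with 0.05 as the limit for a call. An exact permutation test of 3 libraries against 3 cannot reach that limit, so none was run. The contrast of B1 with B2B1 was read from the same fit. No pair of libraries held identical values (0 pairs).

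The 65 gene lists (50 families and pathways, 15 marker lists) and the rules were chosen with earlier results of these data known. Named genes were the 30 highest and 30 lowest called, and up to 4 each way per list called at 2-fold, with a mean of at least 5 TPM over the B1 and B2 libraries and no overlap between these groups. Where a list had no such gene, its 2 most abundant members were taken. Gene models named only by number, Xist and Y-linked genes stayed out of the ranking. Also named were runs of at least 4 neighbouring tested genes and pairs of relatives called in opposite directions. Proteins for these pairs were translated from GENCODE M21 coding sequences in place of the RefSeq proteins first planned, and aligned end to end with Biopython 1.88. Members that complete a small count (Lat, Zbtb46, Irf4, Tyms, Bmp6, Hmox1, Acacb, Trim6 and Trim40), Tubb2a, Vim, Sept11, Fmnl3 and Adora2a were named after their values were seen. Symbols were matched to RefSeq for 11063 of the 11099 genes. Coordinates are from GRCm38, the assembly that mm10 names. Figures were drawn with matplotlib 3.10.9. Some genes and lists are not reported here. Lists were matched by symbol, so some members only share a stem with the rest: Htra2 among receptors, Kcnq1ot1 among channels, Far2 among synthetases, Cstf1, Cstf2, Cstf2t and Cstf3 among cystatins, Slc4a1ap, Slc7a6os, Slc9a3r1 and Slc9a3r2 among carriers, and partners of Rab proteins among Rab GTPases. Of these Slc9a3r2 and Rab11fip4 were called higher at 2-fold and Rab3ip lower. The 15 alternatives covered the pseudocount, the filter on low values, scaling, the libraries in the fit, a replicate block, library weights and leaving out each B1 or B2 library.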

Additional observations from a re-analysis of the deposited data

How the results depend on the processing

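Over the 15 alternatives, 4174 of 4192 values of the 280 genes named by rank or list kept their side of the threshold. Where either fit made a call, 0 values reversed, and 11 lost the call, all of Slc15a2. A change of sign between fits without a call was not counted as reversed. Hba-a1, which was not called, went from -0.59 to 0.05 without B1 library 3. Outside these 280, Cd5l, Gm13051, 1700095A21Rik and Tyms lost calls in 2, 1, 5 and 3 of the 6 fits without 1 library. The other 7 were gained calls among low marker genes. The count of genes called was 5765 and ranged from 4759 (without B2 library 1) to 5942 (without B1 library 2) when single libraries were left out, was 6342 with library weights, 4964 with a filter at 5 TPM and 6219 with no filter. At 2-fold 1418 to 1525 genes were called when single libraries were left out, against 1478 with all. A 4-fold floor left 509 genes, 306 higher and 203 lower. The replicate numbers did not pair the libraries: deviations of equally numbered B1 and B2 libraries correlated at -0.00513, -0.00545 and -0.0363, and with the number as a replicate block 5533 genes were called (1962 higher, 3571 lower) and 1481 at 2-fold. Leaving out B1 library 2 moved the fold of 6 named genes by over 1.5 times; Cish, Farsb, Pde2a, Slc15a2 and Vpreb3 are given in the text, and Hba-a1 went from -0.59 to -1.24. Depth is unknown, so what it limits cannot be stated, and values below 1 TPM should be read only as low.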
